A study of Macaca mulatta with 4 samples.

Results

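The 10 genes described here encode core and accessory subunits of the Polycomb repressive complexes: EZH1, EZH2, EED, SUZ12 and JARID2 of PRC2, and RING1, RNF2, PCGF1, PCGF6 and KDM2B of PRC1. They were chosen by symbol among the 21314 Ensembl macaque genes of the count table, and each symbol matched 1 identifier. Polycomb proteins keep developmental genes silent. PRC2 writes methyl groups on lysine 27 of histone H3, the mark H3K27me3, and PRC1 attaches ubiquitin to histone H2A. In mouse embryos, H3K27me3 inherited from the oocyte also silences the maternal allele of some genes, a form of imprinting that does not need DNA methylation.

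The RNA came from rhesus macaque (Macaca mulatta) morulae, the compacting cell balls that precede the blastocyst. GG embryos are gynogenetic, with maternal chromosomes only, and AG embryos are androgenetic, with paternal chromosomes only. There were 2 GG and 2 AG libraries, and the labels give no agent, sex or age, nor a fertilized embryo with both parental genomes. How many embryos one library holds, and whether replicates are separate animals, is not clear from the labels. The p-values therefore describe spread among these 4 libraries, and that spread may be technical. In such bulk libraries, fewer cells of a type and less RNA per cell cannot be told apart.

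Total estimated counts were 21335918 and 29733977 in GG replicates 1 and 2, and 14129608 and 19108735 in AG replicates 1 and 2. Across tested genes, Spearman correlation was 0.968 between the GG libraries, 0.931 between the AG libraries and 0.803 to 0.858 between groups. Of 13 morula and preimplantation markers, 9 were matched and all 9 were tested, with POU5F1 and NANOG present in every library. Their summed level was 1216 and 1568 CPM (counts scaled to a common library total) in GG and 1964 and 1653 CPM in AG. Of these markers, 6 were called. TFCP2L1, DPPA2 and ESRRB rose in GG, with log2 fold changes of 3.79, 3.34 and 3.04, and DPPA4, KLF17 and ZSCAN4 fell, with -1.98, -4.23 and -9.02. ZSCAN4, a gene of embryonic genome activation, stood at 3.23 and 1.33 CPM in GG against 1325 and 1024 CPM in AG, and without it the markers summed to 1213 and 1567 CPM in GG against 639 and 629 CPM in AG. Blood cell markers also moved with the group: 6 of 7 were matched and none of these was at 0 in every library, and their sum was 9.40 and 7.91 CPM in GG against 154.9 and 67.9 CPM in AG, mostly PTPRC. The part of these differences in the Polycomb values was not tested. Cumulus and granulosa markers (7 of 10 matched) summed to 48.5 and 27.3 CPM in GG and 28.9 and 5.38 CPM in AG, with FSHR at 0 throughout. HSD17B1 alone made up 46.3 and 16.3 CPM of these sums in GG and 25.4 and 4.88 CPM in AG. Sperm markers (7 of 8 matched) summed to 0.760 and 1.60 CPM in GG and 0.570 and 2.03 CPM in AG, with PRM2, TNP2, ODF1 and SMCP at 0.

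All 10 Polycomb genes were detected in every library and passed the filter on low counts. One of them, PCGF1, fell in GG beyond the threshold, an adjusted p under 0.05 in edgeR's quasi-likelihood test with Benjamini-Hochberg adjustment over all 13227 tested genes. The count of 1 in 10 stands beside 12.9% of all tested genes called in either direction and 6.58% called higher in AG, so the share of Polycomb genes called was near the background. None rose in GG beyond the threshold, against 6.34% of all tested genes. The 10 fitted log2 fold changes, GG minus AG, had a median of -0.73, and 8 were negative. All tested genes had a median of 0.04, with 6467 of 13227 negative. Both GG libraries lay below both AG libraries in 6 of the genes, against 30.7% of all tested genes, and above them in 2, against 33.4%. Groups without overlap thus made 8 of 10, against 64.1% of all tested genes. Counts of calls among the 10 changed with the fit, as did the background. They were 5 with DESeq2 (25.2% of all genes), 2 without a low-count filter (14.3%), 2 of the 7 left by a minimum mean of 10 CPM (20.5%) and 1 with a replicate block (12.8%). Leaving out AG replicate 1 gave 2 (15.7%), AG replicate 2 gave 3 (26.7%), and either GG library gave 0 (0.851% and 0.602%). Leaving out a library leaves 1 in its group, so the spread then comes from the 2 libraries of the other group alone. Calls from such fits are descriptions only. A positive log2 fold change means a higher level in GG. The table gives no gene lengths, so levels are compared between libraries for one gene and not between genes.

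**Figure D1:**
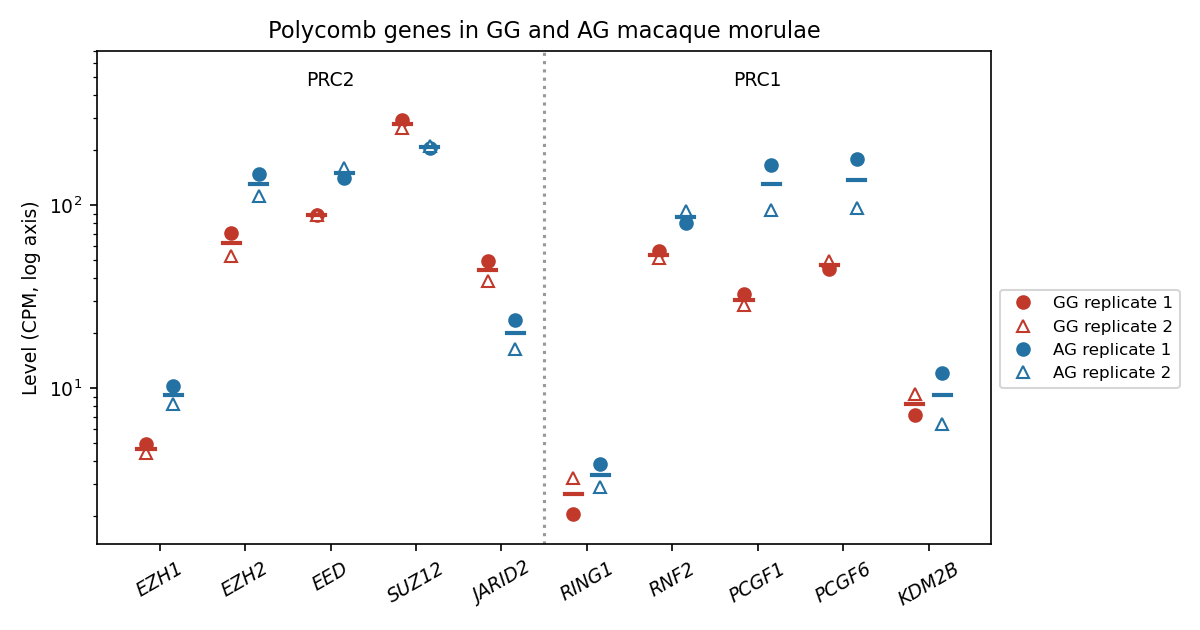
Level of each of the 10 Polycomb genes in CPM on a log axis. GG libraries are red and stand left of the blue AG libraries, replicate 1 is a filled circle, replicate 2 an open triangle, and bars are group means (n = 2 each). JARID2 and SUZ12 have both GG points above both AG points, RING1 and KDM2B overlap, and in the other 6 genes both GG points lie below.

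PRC2 is built on a catalytic subunit, EZH2 or its paralog EZH1, held by the scaffold SUZ12 and by EED, which reads the methyl mark and stimulates the enzyme. EZH2 (ENSMMUG00000013494), the main methyltransferase of dividing cells, had 70.7 and 53.1 CPM in GG replicates 1 and 2, against 148 and 112 CPM in AG. Both GG libraries lay below both AG libraries, and the log2 fold change of -1.07 ± 0.31 SE was not called (adjusted p = 0.0740). It stood at -1.28 without AG replicate 2 and at -0.87 without AG replicate 1.

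EED (ENSMMUG00000019621) had 88.2 and 88.0 CPM in GG, against 140.7 and 161 CPM in AG. The GG pair lay within 1 CPM of each other, the groups did not overlap, and the log2 fold change of -0.77 ± 0.25 SE was not called (adjusted p = 0.0975). EZH1 (ENSMMUG00000006093), whose product is the less active methyltransferase and is known from non-dividing cells, had 4.94 and 4.40 CPM in GG, against 10.3 and 8.18 CPM in AG. Its 104 to 161 rounded counts per library gave exact 95% counting intervals of 4.04 to 5.99 and 3.67 to 5.23 CPM in GG, and of 8.65 to 12.1 and 6.96 to 9.54 CPM in AG. These intervals do not meet, but they cover counting error only, and EZH1 was not called with replicate spread included (log2 fold change -0.98 ± 0.46 SE, adjusted p = 0.210).

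SUZ12 (ENSMMUG00000001116) and JARID2 had values in the other direction. SUZ12 had 294 and 264 CPM in GG, against 207 and 211 CPM in AG, a log2 fold change of 0.42 ± 0.23 SE that was not called (adjusted p = 0.262). JARID2 (ENSMMUG00000015362), a cofactor that helps bring PRC2 to its sites and stimulates it, had 49.7 and 38.6 CPM in GG, against 23.7 and 16.4 CPM in AG. Both GG libraries were above both AG libraries, and the log2 fold change of 1.14 ± 0.36 SE was not called (adjusted p = 0.0917). Without AG replicate 1 it was 1.42 and without AG replicate 2 it was 0.88. No PRC2 gene of the 5 was thus called in either direction with edgeR. At an unadjusted p under 0.05 there were 3, EZH2, EED and JARID2, beside 4236 of the 13227 tested genes, and the DESeq2 Wald test called the same 3 (adjusted p = 0.0188, 0.0469 and 0.0391) and 25.2% of all tested genes.

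**Figure D2:**
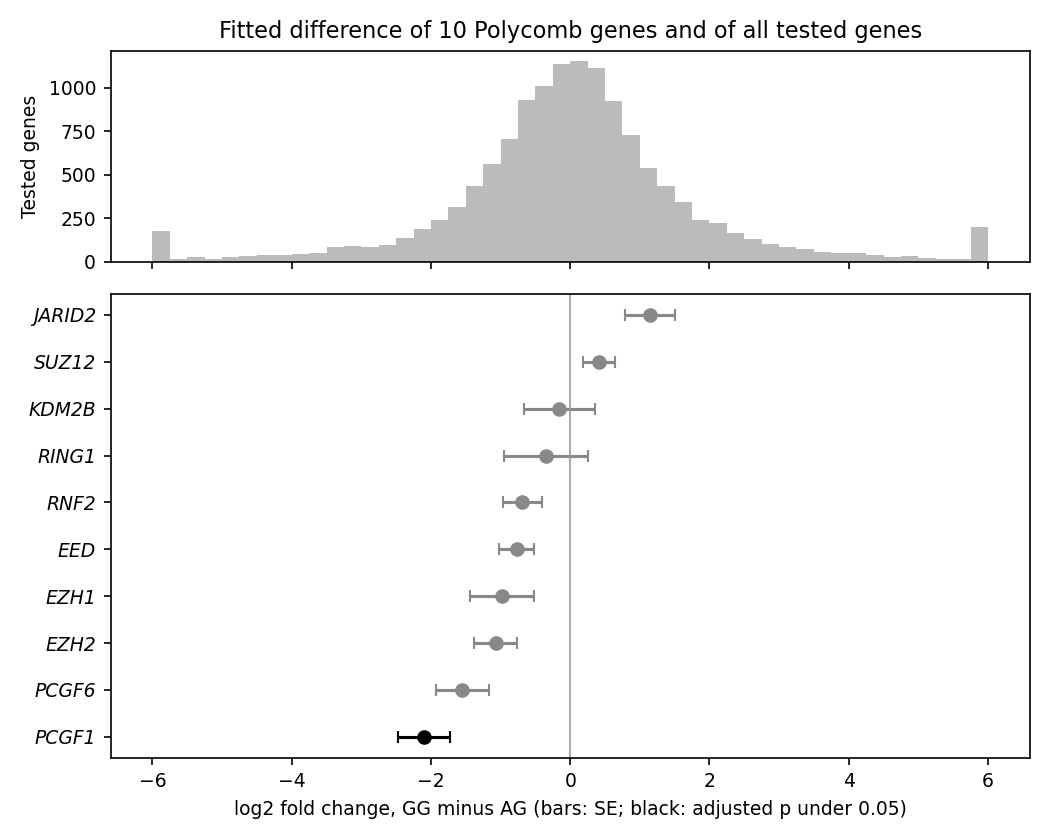
Lower panel: fitted log2 fold change, GG minus AG, of the 10 Polycomb genes with SE bars, called genes in black. Upper panel: the same quantity for all 13227 tested genes, with values beyond 6 in either direction gathered in the end bars. PCGF1 at -2.10 is the one called gene, and JARID2 at 1.14 has the highest value.

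Ratios of counts between 2 genes within one library do not depend on how libraries are scaled to each other. The EZH1 to EZH2 log2 ratio was -3.83 and -3.58 in GG and -3.85 and -3.78 in AG, so the groups overlapped, with a difference of 0.11 (exact permutation test, two-sided p = 0.667). With 2 libraries against 2, the exact permutation test cannot go below p = 0.333, and differences of ratios are therefore descriptions. The listed paralog pairs were 3, and 6 further pairs of subunits were chosen after their values were seen. Among these, the SUZ12 to EED log2 ratio was 1.74 and 1.59 in GG, against 0.56 and 0.39 in AG. SUZ12 over EZH2 stood at 2.05 and 2.31 in GG, against 0.48 and 0.91 in AG. JARID2 over EZH2 stood at -0.51 and -0.46 in GG, against -2.64 and -2.78 in AG, a difference of 2.23 with SDs of 0.03 in GG and 0.09 in AG (n = 2 each). For these 3 pairs the differences were 1.19, 1.49 and 2.23, each with the smallest exact permutation p possible, 0.333. Because the pairs were chosen with these values in view, their separation is no added evidence. EED over EZH2 overlapped between groups, at 0.32 and 0.73 in GG and -0.07 and 0.52 in AG.

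**Figure D3:**
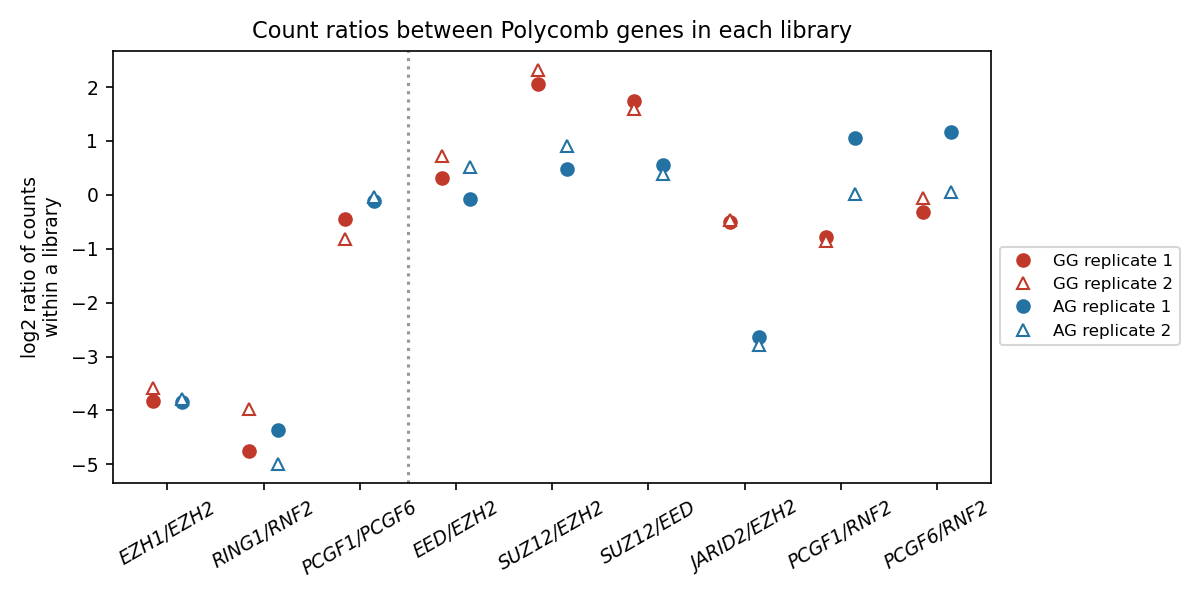
Log2 ratio of counts of 2 genes within each library, GG in red left of AG in blue, replicate 1 as filled circles and replicate 2 as open triangles. The 3 pairs left of the dotted line are the listed paralogs and the 6 on the right were chosen after their values were seen. JARID2/EZH2 separates GG near -0.5 from AG near -2.7, and EZH1/EZH2 overlaps. Ratios of different pairs are not comparable with each other, because gene lengths differ.

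PRC1 carries its ubiquitin ligase on RING1 or RNF2, bound to a PCGF protein that sets which assembly forms. PCGF1 (ENSMMUG00000002127), the PCGF subunit of the assembly with KDM2B and BCOR, had 32.7 and 28.3 CPM in GG replicates 1 and 2, against 167 and 93.9 CPM in AG. Both GG libraries lay far below both AG libraries, and the AG libraries differed more from each other than the GG libraries did. Averages were 30.5 ± 3.10 CPM in GG and 130.5 ± 51.8 CPM in AG (SD, n = 2 each). PCGF1 fell 4.27-fold in GG, a log2 fold change of -2.10 ± 0.38 SE (edgeR adjusted p = 0.0293), and 759 of all tested genes had a p as small or smaller. Its call was lost without GG replicate 1 (log2 fold change -2.19, adjusted p = 0.179) and without GG replicate 2 (-2.03, adjusted p = 0.215).

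PCGF6 (ENSMMUG00000008873), the PCGF subunit of the assembly with MGA, MAX, E2F6 and L3MBTL2, known for silencing germline genes in mouse cells, had 44.8 and 49.7 CPM in GG, against 180.0 and 96.4 CPM in AG. The groups did not overlap, and AG replicate 1 was again the highest library. The log2 fold change was -1.55 ± 0.38 SE at an adjusted p of 0.0522, just over the threshold. With every library kept, PCGF6 was called under DESeq2 (adjusted p = 0.00295), with no low-count filter (0.0161) and at a minimum mean of 10 CPM (0.0421). Its log2 fold change was -1.95 without AG replicate 2 and -1.04 without AG replicate 1. The PCGF1 to PCGF6 log2 ratio was -0.45 and -0.81 in GG, against -0.11 and -0.04 in AG, a difference of -0.56 with the smallest exact permutation p of 0.333.

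RNF2 (ENSMMUG00000013878), also known as RING1B, whose product is the principal ligase in mouse embryonic stem cells, had 56.0 and 51.5 CPM in GG, against 80.2 and 93.0 CPM in AG. Both GG libraries were lower than both AG libraries, and the log2 fold change of -0.69 ± 0.28 SE was not called (adjusted p = 0.154). RING1 (ENSMMUG00000003863), its paralog, had 2.04 and 3.24 CPM in GG and 3.85 and 2.90 CPM in AG. These groups overlapped, and counts of 43 to 95 per library gave wide exact 95% counting intervals, for instance 1.48 to 2.75 CPM in GG replicate 1 and 2.19 to 3.75 CPM in AG replicate 2. RING1 was not called (log2 fold change -0.35 ± 0.60 SE, adjusted p = 0.735). The RING1 to RNF2 log2 ratio overlapped too, at -4.76 and -3.98 in GG and -4.37 and -4.99 in AG.

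KDM2B (ENSMMUG00000021564), whose product binds unmethylated CpG DNA and brings the PCGF1 assembly to CpG islands, had 7.12 and 9.31 CPM in GG and 12.1 and 6.35 CPM in AG. The AG libraries bracketed the GG libraries, and the gene was not called (log2 fold change -0.16 ± 0.51 SE, adjusted p = 0.857). Its direction turned without AG replicate 1 (0.36) and without GG replicate 1 (0.03). PCGF1 and KDM2B belong to the same assembly, and a call for PCGF1 beside none for KDM2B does not show that they differ, which was not tested. Relative to RNF2 in the same library, PCGF1 had log2 ratios of -0.78 and -0.86 in GG, against 1.06 and 0.01 in AG, and PCGF6 of -0.32 and -0.05 in GG, against 1.17 and 0.05 in AG. The differences of -1.36 and -0.80 between group means stood beside SDs of 0.74 and 0.79 within AG, so the second was about as large as the spread between the AG libraries.

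AG replicate 1 and AG replicate 2 were unlike in 3 of the 10 genes. AG replicate 2 had 0.562 times the CPM of AG replicate 1 for PCGF1, 0.535 times for PCGF6 and 0.524 times for KDM2B. The ratio was between 0.692 and 1.16 in the other 7. On the log2(CPM + 1) scale, AG replicate 2 was closer than AG replicate 1 to the GG mean in 7 of 10 genes, against 59.6% of all tested genes.

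**Figure D4:**
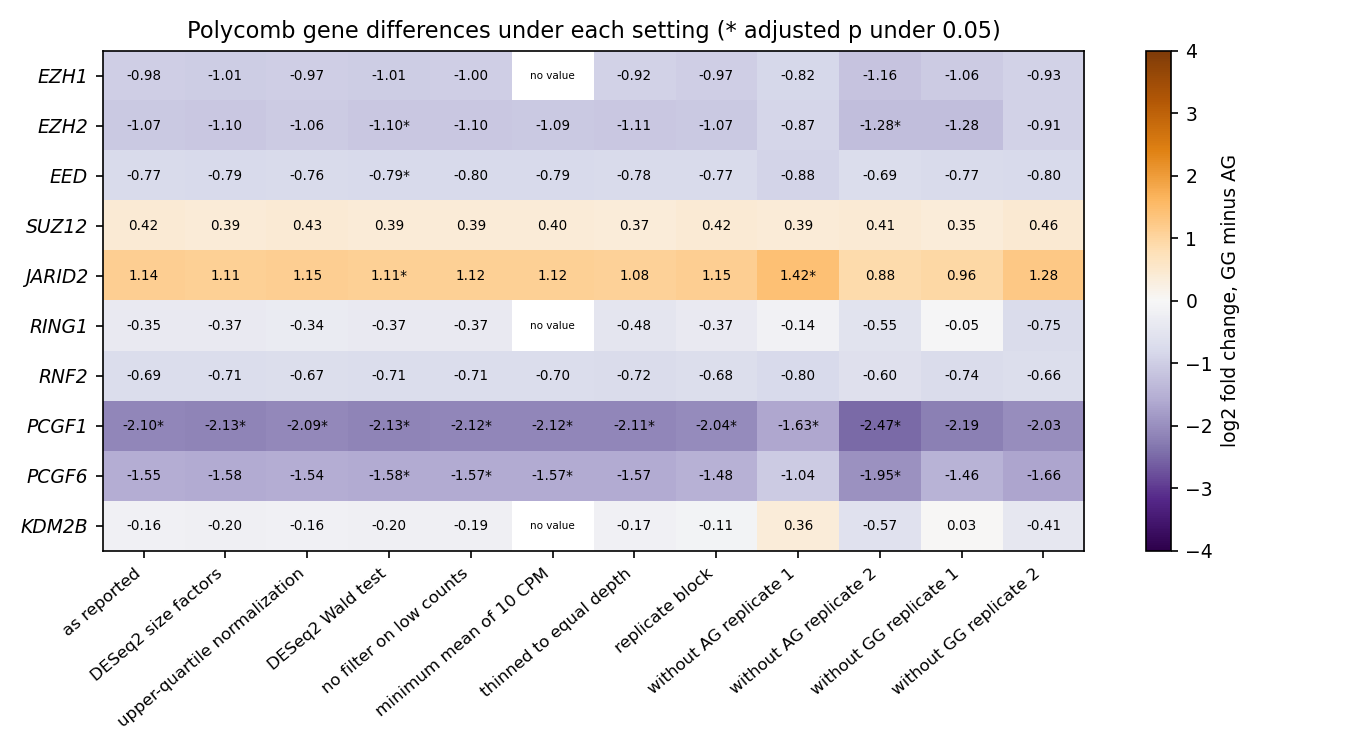
Fitted log2 fold change, GG minus AG, of the 10 Polycomb genes (lines) under the reported fit and 11 alternatives (columns), with an asterisk for an adjusted p under 0.05. Colour runs from purple (lower in GG) to orange (higher in GG). PCGF1 is called in 10 of the 12 columns, and the sign changes in KDM2B without AG replicate 1 or GG replicate 1. Empty cells are genes under the minimum of 10 CPM.

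The other Polycomb genes were taken from lists of 52, of which 49 were matched and 48 tested. PCGF2, BMI1 and EZHIP were not matched and are not analysed here. With edgeR, 0 rose in GG, 2 fell in GG and 46 did not pass the threshold. The 2 called make 4.17% of those tested, below the 12.9% of all tested genes. The median log2 fold change was -0.39, and 35 of 48 were negative, against 0.04 and 6467 of 13227 for all tested genes. DESeq2 called 11 of the 48, 2 higher in GG and 9 higher in AG. That is 22.9%, near the 25.2% of all tested genes that DESeq2 called.

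USP7 (ENSMMUG00000047388), a deubiquitinase found in the PCGF1 assembly and also known for stabilizing MDM2 and p53, had 16.3 and 6.82 CPM in GG, against 223 and 237 CPM in AG. USP7 fell 19.9-fold in GG, -4.31 ± 0.50 SE on the log2 scale (edgeR adjusted p = 0.0132), the largest called difference among the Polycomb genes tested here. The value was -5.06 without GG replicate 1 and -3.84 without GG replicate 2, where the call was lost (adjusted p = 0.0572). PHC3 (ENSMMUG00000022199), a polyhomeotic protein that lets canonical PRC1 polymerize, had 10.5 and 13.8 CPM in GG, against 56.8 and 51.4 CPM in AG. It fell 4.45-fold in GG, with edgeR giving -2.15 ± 0.34 SE on the log2 scale and an adjusted p of 0.0226, and its call was lost without GG replicate 1 (-1.96, adjusted p = 0.198) and without GG replicate 2 (-2.39, adjusted p = 0.168), fits that called 0.851% and 0.602% of all genes.

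Among the 8 other PRC2 genes tested, 0 were called with edgeR and 2 had an unadjusted p under 0.05; their median log2 fold change was -0.34. Those with the highest CPM, not corrected for length, were the histone-binding RBBP4 and RBBP7 and the accessory subunit MTF2. RBBP4 had 501 and 518 CPM in GG and 777 and 568 CPM in AG (log2 fold change -0.40 ± 0.25 SE, adjusted p = 0.319). MTF2, which guides PRC2 to CpG-rich DNA, had 86.1 and 81.9 CPM in GG and 98.2 and 104.8 CPM in AG (-0.27 ± 0.26 SE, adjusted p = 0.510). RBBP7 had 656 and 515 CPM in GG, against 283 and 90.7 CPM in AG (1.65 ± 0.54 SE, adjusted p = 0.100). RBBP7 stood at 2.68 without AG replicate 1 and at 1.03 without AG replicate 2, fits that leave 1 AG library. With every library kept, RBBP7 was called with the replicate block (1.86, adjusted p = 0.0381), under DESeq2 (0.0220) and with no low-count filter (0.0269). EPOP, a PRC2 cofactor singled out after its values were seen, had 1 count in GG and 25 in AG, a ratio of AG to GG of 37.4 (exact 95% counting interval 6.11 to 1533), and was not called. PHF19 had at most 3 counts in a library and was not tested.

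Of the 11 tested genes on the list of canonical PRC1, 1 was called higher in AG (PHC3), 0 were called higher in GG, and the median log2 fold change was -0.56. Of all tested genes, 6.58% were called higher in AG and 6.34% higher in GG. CBX8, a chromodomain reader of H3K27me3, had 3.09 and 3.44 CPM in GG, against 9.90 and 8.74 CPM in AG (-1.51 ± 0.48 SE, adjusted p = 0.0917). The sex-comb-like genes SCML1 and SCML2 had log2 fold changes of -1.51 ± 0.58 and -1.54 ± 0.60 SE, and SCML2 stood at 27.7 and 15.5 CPM in GG, against 93.8 and 32.1 CPM in AG. Neither was called (adjusted p = 0.141 and 0.145). Without AG replicate 2 they stood at -2.01 and -2.15, and without AG replicate 1 at -0.78 and -0.58.

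Of the 20 tested genes on the list of variant PRC1, 1 was called higher in AG (USP7), 0 were called higher in GG, and the median was -0.43. The uncalled genes with the highest CPM, not corrected for length, were SKP1, CBX3 and WDR5, with log2 fold changes of -0.39 ± 0.38, -0.12 ± 0.22 and 0.56 ± 0.26 SE. SKP1 stood at -0.85 without AG replicate 2 and at 0.26 without AG replicate 1. Grouped by textbook assembly, outside the fixed lists, 2 of 6 genes of the PCGF1 assembly were called, PCGF1 and USP7. Of all tested genes 12.9% were called, and the difference between these shares was not tested. KDM2B, SKP1, BCOR and BCORL1 were not called, and the 6 had log2 fold changes between -4.31 and 1.06. The grouping leaves out the ligase genes RING1 and RNF2 and the variant PRC1 genes RYBP and YAF2. None of these was called, so the share depends on which genes are grouped. Of 10 genes of the PCGF6 assembly, 0 were called with edgeR, and 7 had negative values. Chosen after their values were seen, its DNA-binding partners MGA and MAX had log2 fold changes of -0.91 ± 0.28 and -1.06 ± 0.33 SE (adjusted p = 0.0853 and 0.0872). MGA had 72.5 and 56.7 CPM in GG, against 127 and 117 CPM in AG. E2F6 and L3MBTL2, chosen in the same way, stood at -0.82 ± 0.32 and -0.37 ± 0.37 SE. So were the paralogous deacetylase genes HDAC1 and HDAC2, which had log2 fold changes of -0.48 ± 0.24 and 0.50 ± 0.24 SE and were not called (adjusted p = 0.243 and 0.220).

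The remaining PCGF genes, PCGF3 and PCGF5, differed widely between the AG libraries and were chosen after their values were seen. PCGF3 had 8.88 and 9.82 CPM in GG, against 156 and 28.2 CPM in AG (log2 fold change -3.30 ± 0.82 SE, adjusted p = 0.0540). PCGF5 had 8.50 and 5.83 CPM in GG, against 12.5 and 42.7 CPM in AG (-1.95 ± 0.66 SE, adjusted p = 0.106). With every library kept, PCGF3 was called under DESeq2 (adjusted p = 5.46e-05) and with no low-count filter (0.00533). It was also called at a minimum mean of 10 CPM (0.0435) and with counts thinned to equal depth (0.0496). Other scalings and the replicate block did not call PCGF3. PCGF5 was called under DESeq2 (0.0150) and with no low-count filter (0.0427). AG replicate 1 was the higher AG library for PCGF3 and AG replicate 2 for PCGF5. Without AG replicate 1 the log2 fold changes of PCGF3 and PCGF5 were -1.60 and -2.59. Without AG replicate 2 they were -4.08 and -0.82.

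**Figure D5:**
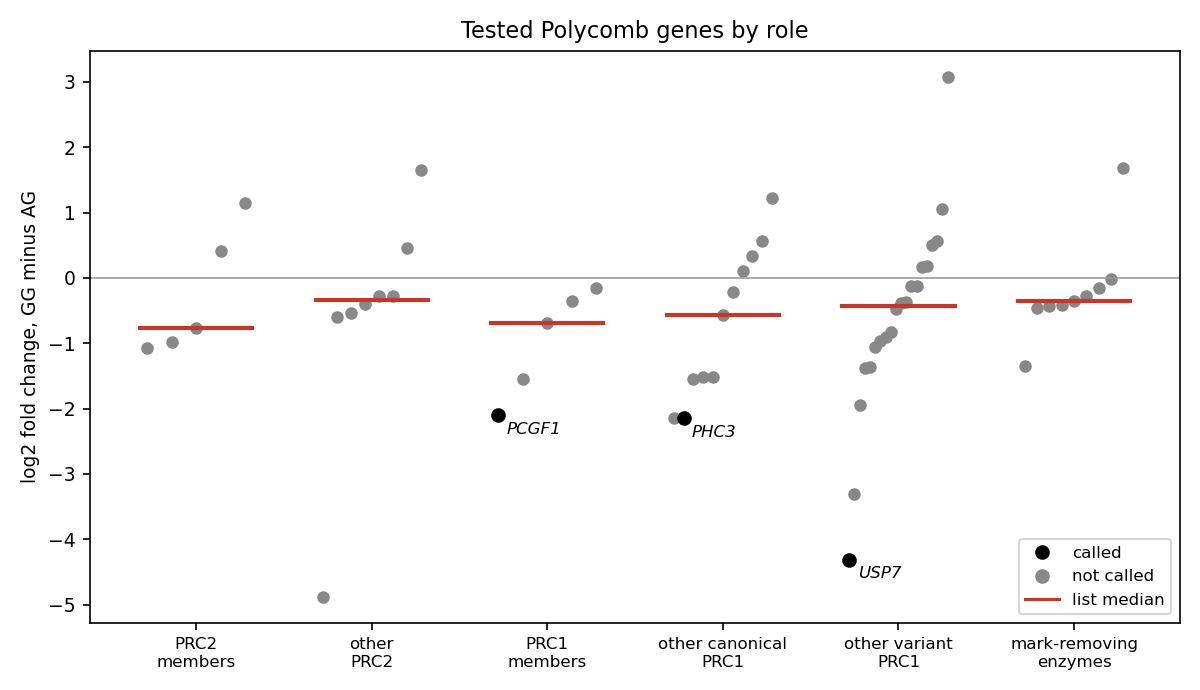
Fitted log2 fold change, GG minus AG, of each tested Polycomb gene by role, sorted within its list, with called genes in black and the list median as a red line. The 3 called genes, PCGF1, PHC3 and USP7, all lie below 0. The low grey point among other PRC2 genes is EPOP, which had 1 count in GG.

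Enzymes that remove Polycomb marks were not called with edgeR (0 of 9, with 1 at an unadjusted p under 0.05), and their median log2 fold change was -0.35. USP16 and MYSM1, which take ubiquitin off histone H2A, had log2 fold changes of -0.43 ± 0.32 and -0.35 ± 0.35 SE, and USP3 had -0.02 ± 0.35 SE. KDM6A, an H3K27 demethylase chosen after its values were seen, had 25.5 and 18.9 CPM in GG, against 8.12 and 5.74 CPM in AG. Both GG libraries exceeded both AG libraries, and the log2 fold change of 1.68 ± 0.42 SE stood at an adjusted p of 0.0545. With every library kept, DESeq2 called it (0.00471), as did edgeR with no low-count filter (0.0388) and at a minimum mean of 10 CPM (0.0476). Without AG replicate 1 it stood at 1.94 and without AG replicate 2 at 1.43.

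KDM6A and RBBP7 are X-linked, as are BCOR, BCORL1, SCML1 and SCML2, while all 10 genes chosen at the outset are autosomal. The 6 X-linked Polycomb genes had a median log2 fold change of 0.62, 4 positive and 2 negative, and 0 were called with edgeR. The 52 autosomal ones had a median of -0.42 and 3 called. Of all tested genes, 12.9% were called. Across all 390 tested X-linked genes, 59 rose in GG and 12 fell, with a median of 0.61. BCOR, with log2 fold change 0.18 ± 0.42 SE, and BCORL1, with 1.06 ± 0.85 SE, both picked with their values in view, were not called (adjusted p = 0.809 and 0.440). BCORL1 stood at 2.75 without AG replicate 1 and at 0.27 without AG replicate 2. The labels do not give the sex chromosomes of the AG embryos, and the part of X dosage in these values was not tested.

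Classic Polycomb targets, mostly developmental transcription factor genes, that carry H3K27me3 in many vertebrate cells had few counts in both groups. Of 57 on the list, 30 were matched and 9 were tested. Of the 30, 15 had at most 10 counts in every library, and 6 of these had no count in any. Summed over the 30, their level was 40.4 and 36.8 CPM in GG and 31.8 and 39.7 CPM in AG, so the groups overlapped. TBX3 (ENSMMUG00000015070), a T-box factor of early embryos, had 11.5 and 6.14 CPM in GG, against 1.50 and 1.32 CPM in AG. It rose 6.24-fold in GG, with edgeR giving 2.64 ± 0.60 SE on the log2 scale and an adjusted p of 0.0455. Its call was lost with the replicate block (2.57, adjusted p = 0.0536), without GG replicate 1 (2.13, adjusted p = 0.298) and without GG replicate 2 (2.99, adjusted p = 0.168). HOXD9 had 1.43 and 1.98 CPM in GG, against 6.06 and 6.25 CPM in AG, and was not called (log2 fold change -1.85 ± 0.56 SE, adjusted p = 0.0827). GATA4 and GATA6 had log2 fold changes of 0.36 ± 0.54 and 0.09 ± 0.60 SE.

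Genes with H3K27me3-based imprinting in mouse, where the paternal allele is the expressed one, were not called in this comparison (edgeR, 0 of 6 tested, 0 at an unadjusted p under 0.05). XIST was not matched and is not analysed here. GAB1, a signalling adaptor, had 37.2 and 28.1 CPM in GG, against 3.63 and 26.3 CPM in AG. Its 2 AG libraries were far apart, and the log2 fold change of 1.12 ± 0.86 SE was not called (adjusted p = 0.418). It was 3.14 without AG replicate 2 and 0.30 without AG replicate 1. JADE1 had 4.84 and 7.77 CPM in GG and 1.71 and 6.70 CPM in AG (0.58 ± 0.76 SE, adjusted p = 0.646). SFMBT2, itself a Polycomb-group gene, had 0.902 and 2.11 CPM in GG and 3.35 and 1.47 CPM in AG (-0.66 ± 0.79 SE, adjusted p = 0.610). The tested genes of this list not shown here had at most 48 counts in a library and SEs of 0.65 to 1.29. Over the 6 genes the median log2 fold change was 0.17.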

How the data were processed

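RNA of 4 macaque morula libraries was measured; cDNA was made with a SMARTer kit for very low input, per the labels' protocols. The deposited table holds estimated counts per Ensembl gene, one column per library; 30.0% to 32.2% of values per library were not whole. Trim Galore, STAR 2.6.0c, Salmon 0.12.0 and rheMac8 are named, without role or order, per the submitters' processing notes; the sources used here give neither strand setting nor annotation release, so overlapping or antisense genes cannot be told apart. Symbols were matched by identifier for 14654 genes. X linkage was looked up by symbol in RefSeq's T2T-MMU8v2.0 genes, without coordinates.

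Counts were rounded and tested with edgeR 4.0.16 in R 4.3.3 (filterByExpr, minimum count 10 and total 15; TMM; quasi-likelihood F test on group; Benjamini-Hochberg). CPM are rounded counts over TMM-adjusted totals. SEs follow from the F statistic. Ratios within a library used a pseudocount of 0.5. On simulated data with 12765 genes, log2 changes of 2 were called in 13.4% and of 4 in 73.7% of cases. Adjusted p-values depend on how many genes change, and whether these percentages hold for the measured libraries was not tested. Intervals cover counting error only; no molecular identifiers are named. The rule for named genes takes the 10, every called gene of the other lists and each list's 3 uncalled genes of highest CPM; the other named genes were picked with their values in view, as the text says. Members and lists were chosen with earlier results of these data known. Alternatives were DESeq2 1.42.0, other scalings and filters, thinning, a replicate block and leaving out each library.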

Additional observations from a re-analysis of the deposited data

How the results depend on the processing

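Of all tested genes, 1709 were called, against 3333 with DESeq2's Wald test, 2609 without a filter on low counts and 84 to 3786 when one library was left out. Of the 10 Polycomb genes, 1 was called; 5 were called with DESeq2, 2 without a filter, 2 with a minimum mean of 10 CPM and 0 to 3 with one library left out. Of the other Polycomb genes, 2 were called; 11 were called with DESeq2, 7 without a filter, 4 with a minimum mean of 10 CPM and 0 to 10 with one library left out. Calls were fewest without GG replicate 1 or 2, fits whose residual spread rests on the 2 AG libraries. Fits without AG replicate 1 or 2 rest in turn on the spread of the 2 GG libraries. DESeq2 size factors, upper-quartile scaling and thinning to equal depth turned no direction among named genes, and the median of all genes stayed between 0.01 and 0.05 under them.

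Directions turned with one library left out in 9 genes not called with all 4, over ranges of log2 fold changes of -0.57 to 0.36 for KDM2B, -0.02 to 0.37 for BCOR, -0.28 to 0.02 for CBX3, -0.85 (called) to 0.26 for SKP1, -0.32 to 0.31 for USP3, -0.19 to 0.74 for GATA4, -0.48 to 1.05 for GATA6, -0.09 to 1.87 for JADE1 and -1.44 to 0.03 for SFMBT2. The EZH1 to EZH2 ratio difference ranged from -0.0135 to 0.23 and the RING1 to RNF2 one from -0.0813 to 0.697 with one library left out. The PCGF1 to PCGF6 difference kept its sign. The cause was not tested.

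Whether replicates of the same number share a batch or animal is not clear from the labels. Across 13227 genes the difference of replicates 1 and 2 correlated between GG and AG at r = 0.108, which does not settle it. A replicate block gave 1697 calls in all, 1 among the 10 and 3 among the other Polycomb genes, and turned USP3 (0.01). Summing identifiers per symbol could change nothing, as each of the 10 had 1 identifier. Low counts limited EPOP and most target genes.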
